A study of Mus musculus with 24 samples.

Results

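Carbonic anhydrases are zinc enzymes that interconvert carbon dioxide and bicarbonate. The 10 genes Car1, Car2, Car3, Car4, Car7, Car8, Car9, Car12, Car13 and Car14 were followed across 24 RNA sequencing libraries of mouse intestinal organoids. They are 10 of the 16 carbonic anhydrase genes named Car in the annotation, and 10 of the 45706 gene identifiers in each count table. The members were chosen on their levels in non-induced organoids of both tissues and on their change upon induction in these same libraries. Their levels and changes are therefore given as a description, and a count of members past a threshold supports nothing beyond itself.

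Organoids are epithelial cultures grown in gel from intestinal crypts, here from C57BL/6N mice, either of the small intestine (SI) or of the colon (COL). The 3 genotypes compared in each tissue were BraffloxV600E/+;Villin::CreERT2 (BRAF), Trp53LSL-R172H/+;Villin::CreERT2 (p53) and the combination of both alleles (BRAFp53). All of them carried the Villin::CreERT2 transgene, controls included, so that recombination was limited to villin-expressing epithelium. Induced organoids (on) were given 4-hydroxytamoxifen (4-HT) for 24 h at 0.5 µM in SI and 3.5 µM in COL, which switches on BRAFV600E, a constitutively active kinase, or p53R172H, a dominant-negative p53. Non-induced organoids (off) received ethanol. RNA was taken 8 days later in SI and 3 days later in COL. Each of the 12 groups of tissue, genotype and state had 2 libraries. A genotype was 1 donor culture per tissue, so that a difference between genotypes cannot be told apart from one between donors, and the spread between 2 libraries is that of handling. The age of the mice is not given in the sources used here.

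In the intestine, cytosolic and membrane-bound carbonic anhydrases supply the bicarbonate and protons that apical and basolateral exchangers carry. Car1, Car2, Car3, Car7 and Car13 are cytosolic. Car4 is held on the apical membrane by a lipid anchor, and Car9, Car12 and Car14 span the membrane with the active site outside the cell. Car8 is a cytosolic protein of the same fold that has lost catalysis. Car1 and Car4 are textbook genes of colonic surface cells, and Car9 is a classical target of the hypoxia response.

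The active site sets Car8 apart from the other members. The zinc ion is held by 3 histidines, and the windows below, of 30 bases each, cover the first and the second of them in the longest reading frame of each gene (GENCODE M21 transcripts, GRCm38, coding strand, 5′ to 3′). They were placed by an alignment to Car2, and the capitals mark the codons at the positions of these histidines.
Car1: ctcactcagttcCATtttCACtggggcaac
Car2: ttgatccagtttCACtttCACtggggctca
Car13: ttgcggcagttcCATttgCACtgggggtca
Car4: gctgtacagttgCACctgCACtggtcaaat
Car9: gccttgcagttgCATctaCACtggggaact
Car12: gcagagcagctgCACttgCACtgggggaac
Car8: ctgtatgaagttAGAtttCACtggggaaga
All 3 histidine codons were found in 9 of the 10 members. Car8 kept 2 of them, and the first capital codon of its window does not encode histidine. Against the window of Car2, the window of Car13 matched at 23 of 30 bases, that of Car1 at 21, that of Car9 at 18, those of Car8 and Car12 at 17, and that of Car4 at 16.

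Car13, Car1, Car3 and Car2 lie next to each other on chromosome 3 (GRCm38, 14641727 to 14900770, a span of 259.0 kb) and are the only 4 protein-coding genes in that span. Car13 lies at 14641727 to 14663002, Car1 at 14766216 to 14808368, Car3 at 14863512 to 14872523 and Car2 at 14886273 to 14900770, with Car1 on the minus strand and the others on the plus strand. The other members described here are spread over the genome, with Car4 on chromosome 11 (84957786 to 84966044, plus strand), Car8 on chromosome 4 (8143362 to 8239041, minus strand), Car9 on chromosome 4 (43506966 to 43513729, plus strand) and Car12 on chromosome 9 (66713686 to 66766845, plus strand).

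COL libraries held 51.2 to 78.2 M counts and SI libraries 44.4 to 68.2 M. A level is given in CPM, the count per 1000000 after TMM scaling over the 24 libraries, and 3 counts, taken as the detection limit for counting error alone, were 0.0381 to 0.0854 CPM. Upon induction, Trp53 rose in COL p53 and COL BRAFp53 organoids (log2 fold change 0.94 in both) and in SI BRAFp53 organoids (0.52), and it fell in COL BRAF (-0.44) and SI BRAF organoids (-0.62), whereas its change of 0.76 in SI p53 organoids and the change of Braf in the BRAF-bearing arms missed the threshold. Mutant and wild-type transcripts are counted together. Of the colon markers given here, Hoxd13 was at or near 0 in both tissues, and Hoxb13 was at 0 in SI and at most 0.22 CPM in COL. The small intestinal marker Gata4 was at 81.0 to 116 CPM in SI and at 1.44 and 2.17 CPM in the COL p53 and COL BRAFp53 cultures, but at 46.3 CPM in the off COL BRAF culture. The whole list of 7 small intestinal markers, most of them Paneth cell genes, did not follow the labels, as it summed to 686 to 2161 CPM in COL libraries and to 230 to 590 CPM in SI libraries, with 5 and 6 of the 7 genes over 1 CPM in every library of the tissue. The colon marker Aqp8 overlapped between off COL and off SI libraries. The defining markers of red blood cells (Hbb-bs, Hba-a1) and fat cells (Adipoq, Plin1), cell types rich in Car1, Car2 or Car3, were under 0.1 CPM in every library. All 6 erythroid markers together summed to 0.313 to 0.931 CPM in COL libraries and to 0.0633 to 0.468 CPM in SI libraries. For muscle, also rich in Car3, the 4 markers summed to 114 to 426 CPM in COL and to 13.1 to 406 CPM in SI. In each tissue 1 of these 4 was over 1 CPM in every library, while Ckm, Des and Myh4 stayed under 0.1 CPM in SI. The 7 stromal and immune markers summed to 4.59 to 13.9 CPM in COL libraries and to 0.998 to 2.12 CPM in SI libraries.

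One library stood apart. In SI BRAF on replicate 1, the X-inactivation transcript Xist was at 17 CPM, against 0.228 to 0.475 CPM in the other 3 libraries of that culture and 113 to 164 CPM in the 8 libraries of the other SI cultures. The other SI cultures also held more Car2 than this culture, 2.67 CPM or more in every library, and whether RNA or cells of another culture were part of this library was not tested. Changes of SI BRAF organoids that rest on this library are given without it as well. The Y-linked Ddx3y was at 46.1 to 63.8 CPM in COL libraries, where Xist was at most 0.0411 CPM, and at 33.1 to 39.2 CPM in SI BRAF libraries, but at most 0.0633 CPM in the other SI libraries. The SI p53 and SI BRAFp53 cultures were therefore female and the other 4 cultures male. Sex cannot be told apart from genotype within SI, nor from tissue in the p53 and BRAFp53 genotypes. The study's methods name 3 donor mice for the organoids. By sex, the COL and SI cultures of the p53 and BRAFp53 genotypes did not come from the same mouse.

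Sequence shared with other genes was searched for in each member. Of all stretches of 50 bases in the transcripts of Car2, Car3, Car4, Car12 and Car13, none occurred in a transcript of another gene. Car1 shared 13.4% of its stretches with Gm5843, a pseudogene inside the Car cluster that held 17 to 307 counts in COL libraries and 0 in SI libraries. Car9 shared 4.76%, mostly with the antisense gene Gm12454, and Car14 shared 15.7% with Aph1a, which runs on the opposite strand. Car7 and Car8 shared 0.0279% and 0.0789% of theirs. Whether the counting used strand is not given in the sources used here, so that Car14, with at most 30 counts in a library, cannot be told apart from reads of Aph1a.

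Off organoids of the 2 tissues differed in some carbonic anhydrases, whereas Car9 and Car13 were at similar levels in both. Of the 9 members that passed the filter on low counts, 4 differed between off COL and off SI cultures (3 cultures each), against 29.6% of all genes tested, and all 4 were higher in COL, namely Car1, Car2, Car8 and Car12. Since off levels were used to choose the members, nothing is read from this count. Per the study's methods, Wnt3a and a GSK3 inhibitor were given to colonic crypts alone, and this medium cannot be told apart from the tissue. The same holds for the day of RNA isolation, 3 in COL and 8 in SI, and for sex in the p53 and BRAFp53 genotypes. In these bulk cultures, more cells of one type and more RNA per cell cannot be told apart.

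Car1 was the most abundant member in every COL library and was not counted at all in off SI organoids. Its off level was 1344 and 1367 CPM in the COL BRAF culture, 3447 and 4242 CPM in COL BRAFp53 and 14126 and 18688 CPM in COL p53. All 6 off SI libraries held 0 Car1 counts, and the lowest off COL library was at least 19800-fold above the highest detection limit of an off SI library. In COL p53 off replicate 2, Car1 alone took 2.0% of all counts. Car2, the fast cytosolic isoform found in most secretory epithelia, followed in COL. Its off level was 1102 and 1037 CPM in COL BRAF, 395 and 424 CPM in COL BRAFp53 and 2632 and 2799 CPM in COL p53, against 0.385 and 0.51 CPM in SI BRAF, 3.41 and 2.88 CPM in SI p53 and 5.36 and 5.19 CPM in SI BRAFp53. The median over cultures was 339-fold higher in COL (log2 difference 8.86, SE 1.23). Within SI, the culture with the least Car2 was 11.8-fold below the one with the most.

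Car12 and Car8 were also higher in every off COL library than in every off SI library. Car12, a membrane enzyme of basolateral surfaces, was at 43.3 to 85.4 CPM in the off COL libraries and at 6.69 to 11.6 CPM in the off SI libraries (log2 difference of the cultures 2.93, SE 0.22). The catalytically silent Car8 was at 52.0 to 107 CPM in COL and at 6.48 to 17.5 CPM in SI (log2 difference 2.87, SE 0.45). With genotype as a block across the tissues, the Car8 difference no longer passed (edgeR adjusted p = 0.0621). This block does not pair mice in the p53 and BRAFp53 genotypes, whose cultures differed in sex between the tissues. Car13 and Car9 showed no such split. Car13 was at 31.4 to 45.7 CPM in off COL libraries and at 30 to 41.4 CPM in off SI libraries, and Car9 at 142 to 285 CPM and at 155 to 392 CPM. The 2 ranges overlapped for both genes.

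**Figure D1:**
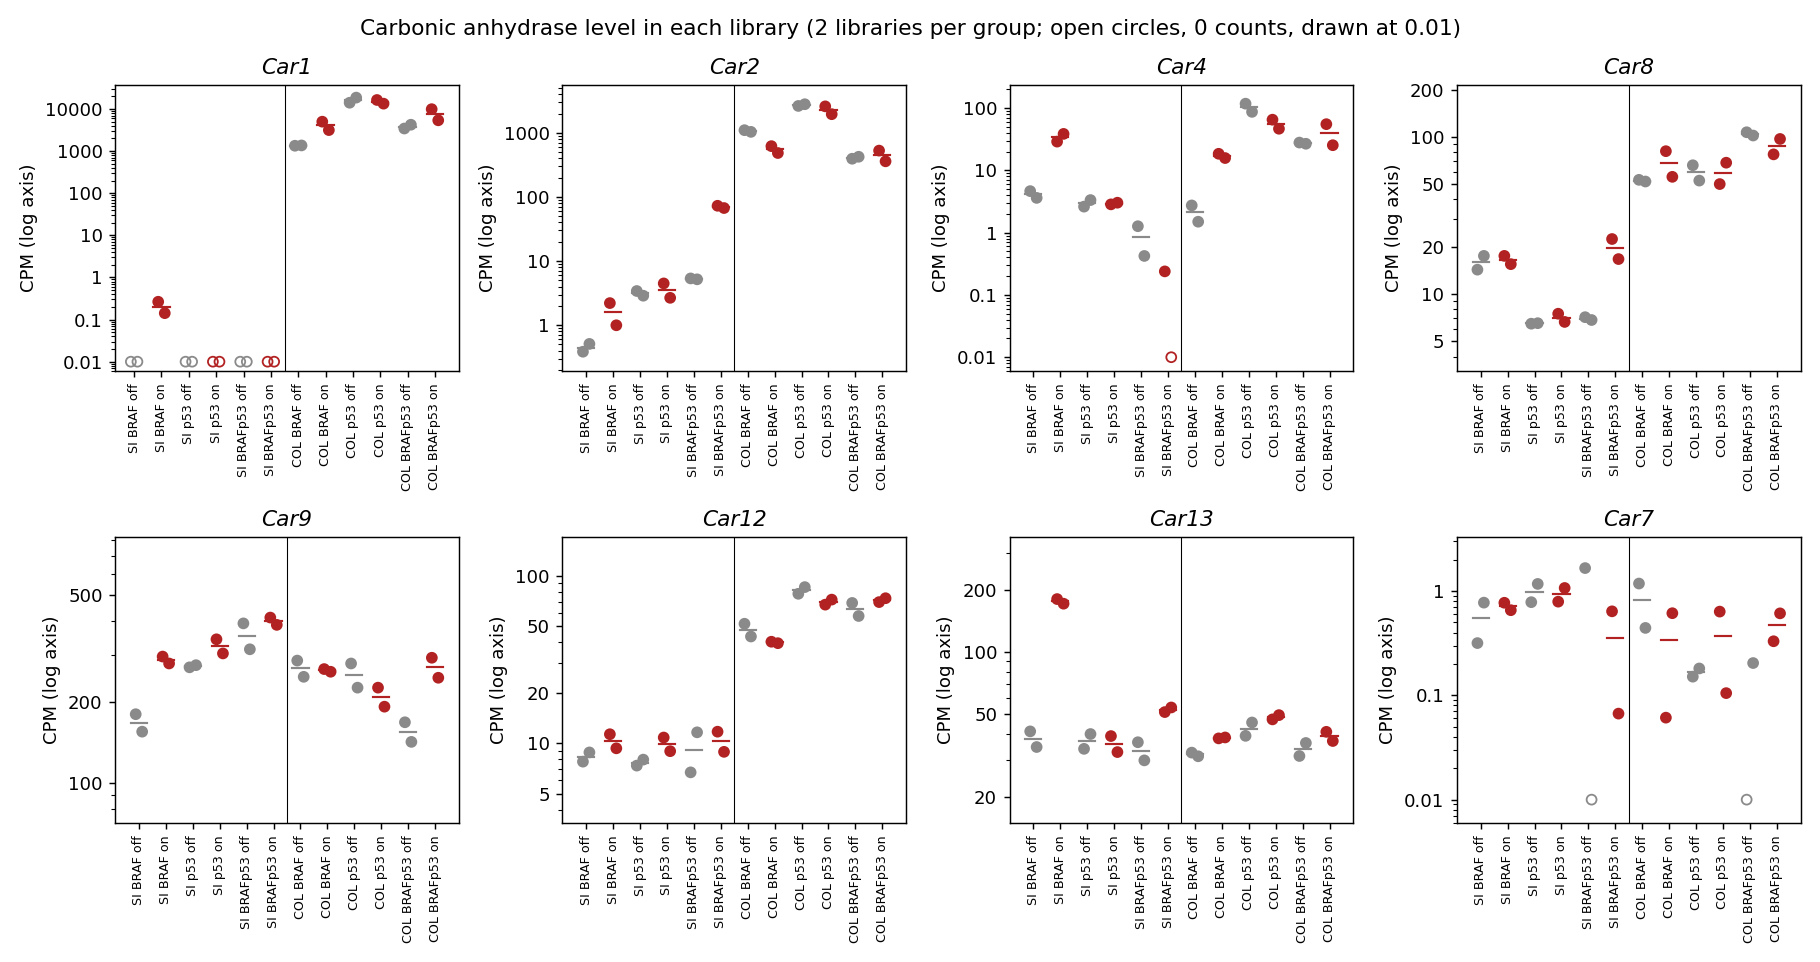
Level of 8 carbonic anhydrase genes in each of the 24 libraries, in CPM on log axes, by group (grey, off; red, on), with a line at the mean of groups without a 0. Car1, Car2, Car8 and Car12 are higher in every COL library (right of the line) than in every SI library, Car4, Car9 and Car13 overlap between the tissues, and Car7 stays under 2 CPM.

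Car4 varied widely among the COL cultures. Its off level was 118 and 87.2 CPM in COL p53, 28.0 and 26.8 CPM in COL BRAFp53, but 2.74 and 1.5 CPM in COL BRAF. The COL BRAF culture thus lay within the range of the off SI libraries, which was 0.423 to 4.65 CPM, and the highest COL culture was 48.1-fold above the lowest. In the fit across all genes, the off COL minus off SI difference of Car4 (log2 4.04, SE 1.27) lay at the threshold (edgeR adjusted p = 0.0501). It passed without the COL BRAF culture (0.0104), and with that culture kept it passed without a filter on low counts, with at least 10 counts in every library, with DESeq2 and with the 12 off libraries entered separately (adjusted p = 0.0027 to 0.0398). It did not pass with RLE size factors, limma-voom, genotype as a block or any other culture left out (adjusted p = 0.0509 to 0.24). Other genes moved with Car4 over the 3 COL cultures. The colonic surface water channel Aqp8 was at 77.0 CPM in the COL p53 culture, at 6.50 in COL BRAFp53 and at 0.135 in COL BRAF, and Gata4 was highest in COL BRAF. Car1 and Car12 were lowest in the same culture. The part of regional identity, or of the site of origin along the colon, in the Car4 level was not tested.

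**Figure D2:**
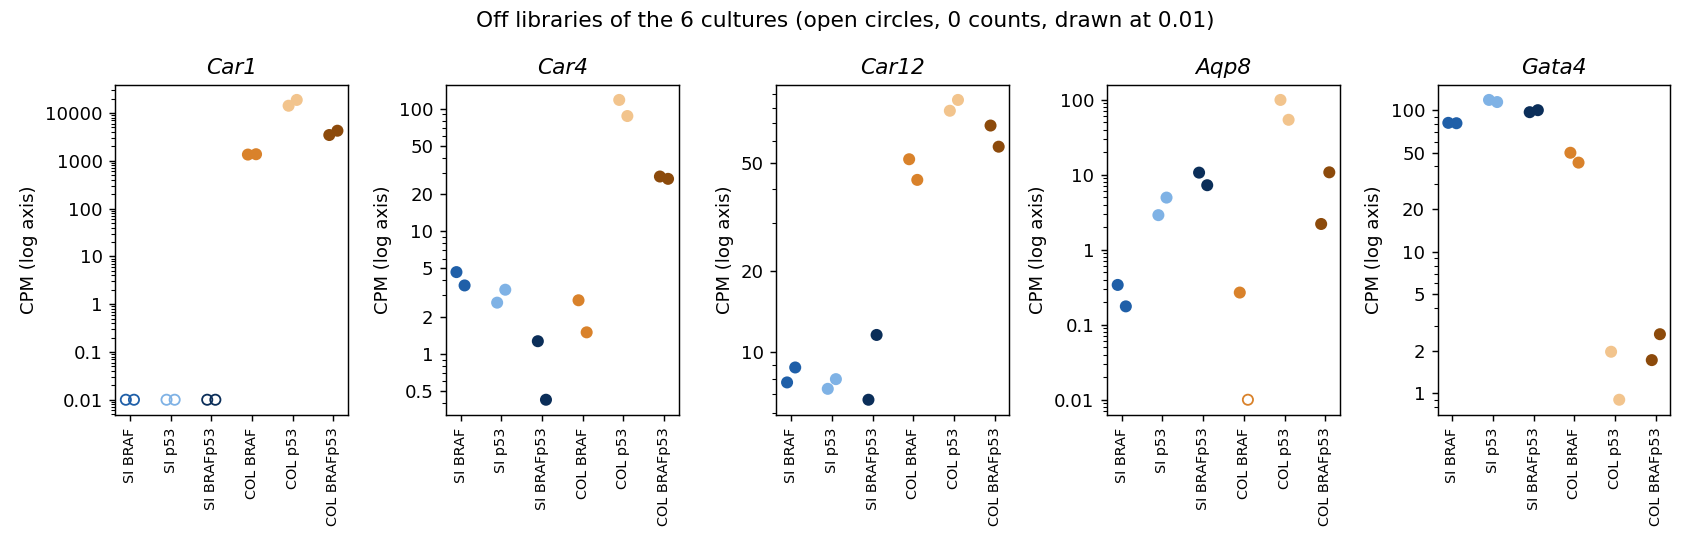
Off libraries of the 6 donor cultures (2 points each, CPM on log axes) for Car1, Car4, Car12, the colonic gene Aqp8 and the small intestinal gene Gata4. The COL BRAF culture has the least Car1, Car4, Car12 and Aqp8 of the 3 COL cultures, and the most Gata4.

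The remaining members were scarcely expressed. Car3, a muscle and fat isoform, held at most 27 counts in a library, Car7, a cytosolic isoform known from neurons, at most 86, and Car14, a membrane isoform, at most 30. Their group means were 0 to 0.304 CPM for Car3, 0.102 to 0.974 CPM for Car7 and 0.0578 to 0.297 CPM for Car14. Libraries of neighbouring groups in the order of means overlapped throughout for these 3 genes, and none of them passed in any on versus off comparison.

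Levels were then compared between genes after division by exon length, in CPM per kilobase. The 10 members summed to 1679 ± 18.9 (SD, n = 2) in off COL BRAF organoids, 3381 ± 451 in off COL BRAFp53 and 14474 ± 2607 in off COL p53. The same sum was 96.8 ± 9.36 in off SI BRAF organoids, 140 ± 3.65 in off SI p53 and 174 ± 26.6 in off SI BRAFp53. Car1 made up 64.7% of this sum in off COL BRAF organoids, 90.7% in COL p53 and 91.0% in COL BRAFp53, and Car2 was second in all 3. In SI, Car9 led with 74.9%, 84.3% and 88.2% in the BRAF, p53 and BRAFp53 cultures, followed by Car13 with 17.1%, 11.6% and 8.35%. Thus a cytosolic pair led in COL, and a membrane isoform with a cytosolic one in SI.

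**Figure D3:**
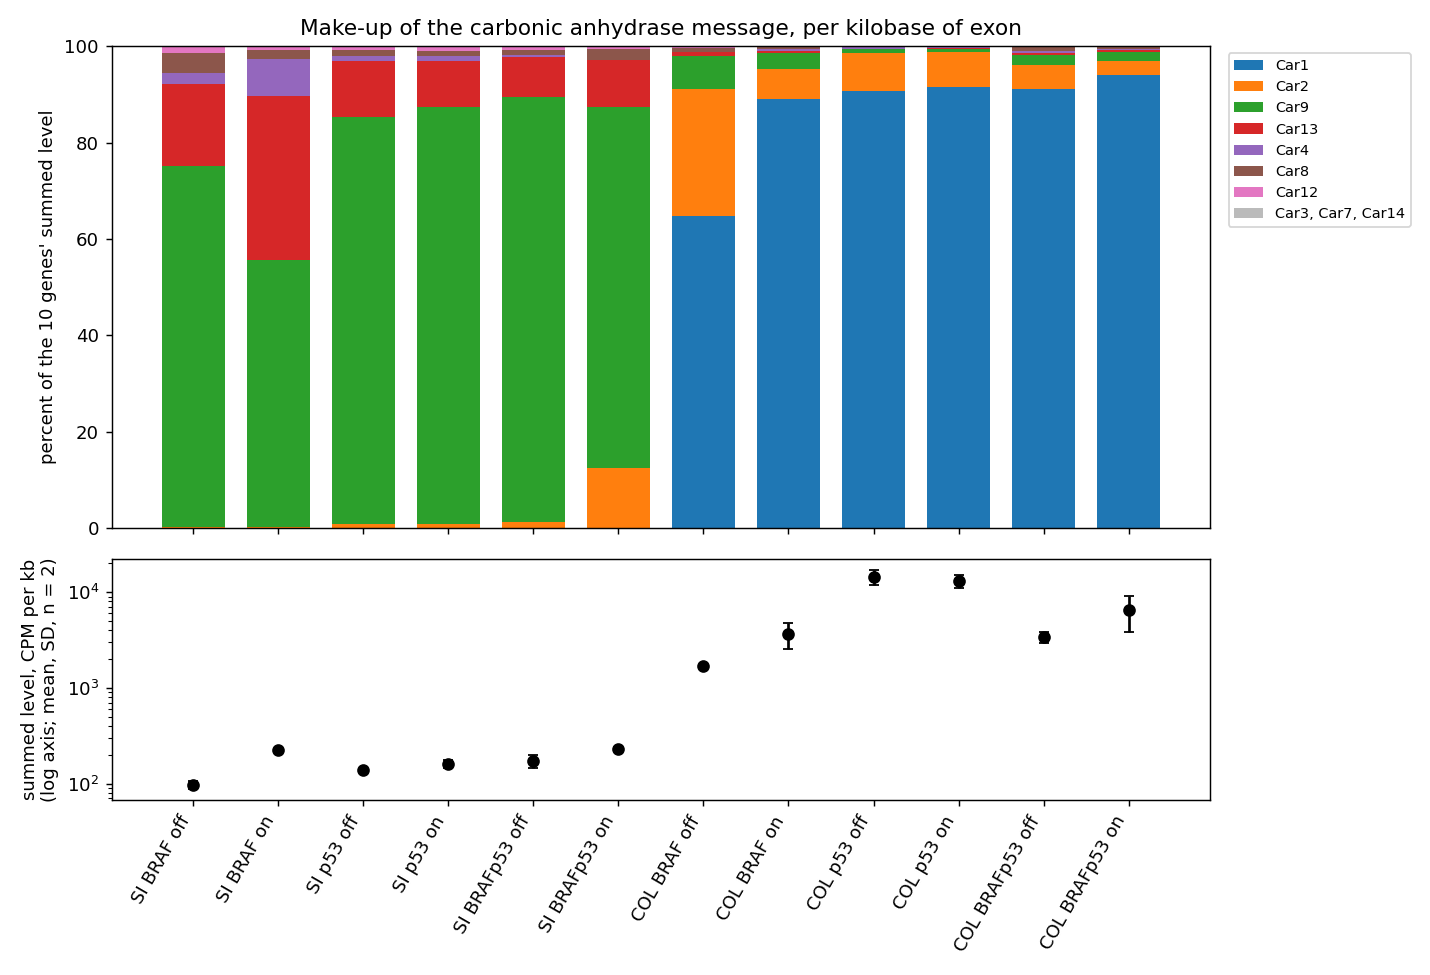
Upper panel, the share of each gene in the summed level of the 10 genes (CPM per kilobase of exon, mean of 2 libraries) in the 12 groups. Lower panel, the summed level itself on a log axis (mean and SD, n = 2). Car1 and Car2 fill most of the COL bars, and Car9 and Car13 most of the SI bars, where Car13 reaches 34.0% in SI BRAF on and Car2 12.5% in SI BRAFp53 on.

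Next, the change upon induction was examined in each of the 6 arms. On versus off passed the threshold for 3 of 10 members tested in COL BRAF organoids, where 19.9% of all genes did, and for 2 of 10 in COL BRAFp53 organoids (17.7% of all genes). It passed for 4 of 8 members in SI BRAF organoids (31.7%) and for 4 of 8 in SI BRAFp53 organoids (11.5%), Car1 and Car3 having been too low for the SI fits. With p53R172H alone, edgeR called 0 of 10 members in COL (0.142% of all genes) and 0 of 8 in SI (0% of all genes). At an unadjusted p under 0.05 there was 1 member in COL p53, Car4 (8.34% of all genes), and there were 0 in SI p53 (5.18%), and DESeq2 and limma-voom called 0 members in both. Over the 6 arms 6 members passed at least once, and 4, Car3, Car7, Car12 and Car14, never did. These changes were among the values that chose the members, so the counts are no evidence of a family response.

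The apical Car4 rose about equally with BRAFV600E alone in the COL BRAF and SI BRAF cultures. This COL culture was the one whose off Car4 lay within the off SI range and whose Gata4 was highest among the COL cultures. In COL BRAF organoids it went from 2.74 and 1.5 CPM off to 18.5 and 15.8 CPM on, and in SI BRAF organoids from 4.65 and 3.62 CPM off to 29.0 and 38.6 CPM on. The libraries of the 2 states did not overlap, and the ratios of the means were 8.09-fold and 8.17-fold (log2 fold change 3.01, SE 0.37, and 3.00, SE 0.45). Without SI BRAF on replicate 1, the SI value was 3.21 and still passed. Together with p53R172H the pattern was another. In SI BRAFp53 organoids Car4 fell, from 1.27 and 0.423 CPM off to 0.239 and 0 CPM on, a 7.09-fold lower mean (log2 fold change -2.93, SE 0.74). Behind these values stand 66 and 22 counts off against 12 and 0 on, and the change no longer passed without on replicate 2 or without off replicate 1 (edgeR adjusted p = 0.137 and 0.22), nor with limma-voom on all libraries (log2 fold change -4.18, adjusted p = 0.0726). With 1 library left out the log2 fold change was -1.82, without on replicate 2, to -8.50, without on replicate 1, which leaves a lone on library at 0. In COL BRAFp53 organoids Car4 was at 28.0 and 26.8 CPM off and at 55.3 and 25.4 CPM on, 2 overlapping groups (log2 fold change 0.51, SE 0.32). Without on replicate 1 its direction turned (-0.14), and it passed at 0.96 without on replicate 2 and at 0.52 without a filter on low counts (edgeR adjusted p = 0.0405 and 0.0107). Both on libraries of COL p53 organoids, at 65.3 and 46.7 CPM, lay below both off libraries at 118 and 87.2 CPM, but the change of -0.87 (SE 0.32) did not pass, except when no filter on low counts was used.

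Car2 fell in COL BRAF organoids and rose in SI BRAFp53 organoids, which differ in genotype as well as in tissue. In COL BRAF organoids it fell from 1102 and 1037 CPM to 621 and 485 CPM (log2 fold change -0.95, SE 0.18). In SI BRAFp53 organoids, it rose from 5.36 and 5.19 CPM to 72.9 and 67.2 CPM, a 13.3-fold higher mean (log2 fold change 3.71, SE 0.29). This level remained 5.85-fold below that of the lowest off COL culture. In SI BRAF organoids, Car2 was at 0.385 and 0.51 CPM off and at 2.21 and 0.996 CPM on, which are 17 and 29 counts against 100 and 35. The log2 fold change of 1.82 (SE 0.39) rested in part on the library that stood apart, and it was 1.12 without it (edgeR adjusted p = 0.055). In COL BRAFp53 organoids the 2 states overlapped, with 395 and 424 CPM off and 529 and 360 CPM on (log2 fold change 0.07, SE 0.18).

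Car13, the neighbour of Car1 in the cluster, had its largest change in SI. In SI BRAF organoids it rose from 41.4 and 34.8 CPM to 180 and 171 CPM (log2 fold change 2.17, SE 0.15), and the highest library of any other group held 54.0 CPM. In SI BRAFp53 organoids it was at 36.7 and 30 CPM off and at 51.3 and 54.0 CPM on (log2 fold change 0.64, SE 0.14), a change that was lost without on replicate 2 or without off replicate 2 (edgeR adjusted p = 0.0725 and 0.111). In COL the log2 fold changes were between 0.15 and 0.27 and none passed.

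Car1 rose upon induction of BRAFV600E in COL. In COL BRAF organoids it went from 1344 and 1367 CPM to 5011 and 3163 CPM (log2 fold change 1.59, SE 0.27), the opposite direction to Car2 in the same libraries. In COL BRAFp53 organoids it was at 3447 and 4242 CPM off and at 9931 and 5400 CPM on (log2 fold change 0.94, SE 0.26). The log2 fold change was 0.46 without on replicate 1, 0.79 without off replicate 1 and 1.12 without off replicate 2, and the call was lost in these 3 fits (edgeR adjusted p = 0.266, 0.144 and 0.0543). In COL p53 organoids the states overlapped. In SI, 10 of 12 libraries held 0 Car1 counts, and the exceptions were the SI BRAF on libraries with 12 and 5 counts and 0.265 and 0.142 CPM, where 3 counts were at most 0.068 CPM in an off SI library. COL libraries reached 1345609 Car1 counts, and whether the few SI counts came from reads passed between libraries was not tested.

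The hypoxia target Car9 rose in SI BRAF organoids from 180 and 155 CPM to 295 and 278 CPM (log2 fold change 0.75, SE 0.12) and in COL BRAFp53 organoids from 168 and 142 CPM to 292 and 246 CPM (0.74, SE 0.14). In COL BRAF organoids it was at 285 and 248 CPM off and at 265 and 259 CPM on. The 2 arms in which it rose were those whose off level was lowest, 167 ± 17.7 and 155 ± 18.4 CPM, and in the other 4 arms off means were 252 to 353 CPM. Car8 rose in SI BRAFp53 organoids from 7.13 and 6.84 CPM to 22.4 and 16.7 CPM (log2 fold change 1.47, SE 0.18), and its changes elsewhere were between -0.31 and 0.38. Car12 passed in no arm, and its log2 fold changes were -0.25 to 0.36.

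**Figure D4:**
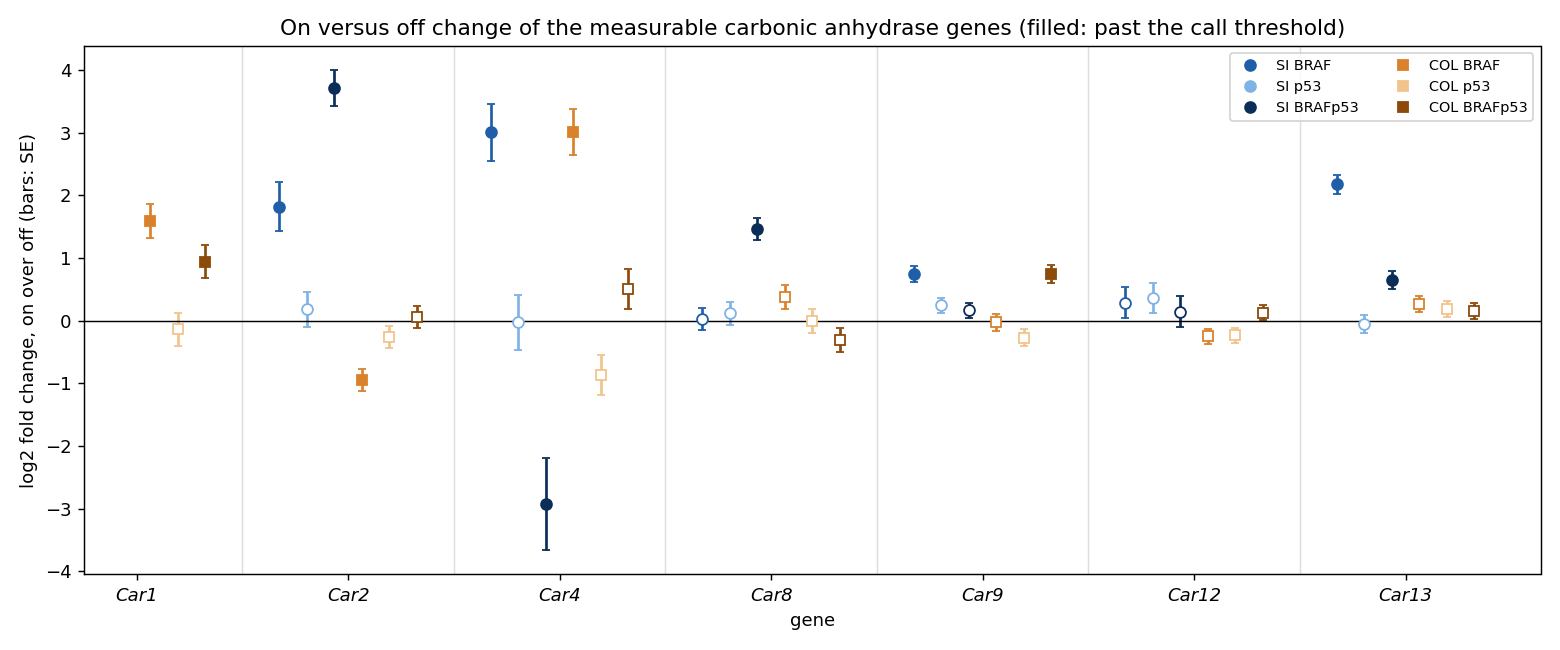
Log2 fold change of on over off (edgeR, bars are SE) for 7 members in the 6 arms (circles, SI; squares, COL), with filled symbols past an adjusted p of 0.05. Car4 stands near 3 in SI BRAF and COL BRAF and near -3 in SI BRAFp53, Car2 reaches 3.71 in SI BRAFp53 and lies below 0 in COL BRAF, and Car13 is highest in SI BRAF. Car1 is shown for COL alone.

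The arms were then compared with each other, which uses the same on and off values. In SI, the BRAFp53 response differed from the BRAF response for 4 of 8 members (8.20% of all genes). Car4 was lower by 5.93 on the log2 scale (SE 0.84, and -4.85 to -11.53 with 1 library left out) and Car13 by 1.53 (SE 0.20). Car2 was higher by 1.89 (SE 0.49) and Car8 by 1.44 (SE 0.25). The end at -11.53 leaves a lone SI BRAFp53 on library at 0 Car4 counts, and its size is set by the detection limit. The Car2 difference passed in 1 of the 8 fits that each left out 1 library, the one without SI BRAF on replicate 1, where it was 2.60, and it did not pass with limma-voom (adjusted p = 0.0781). In COL, the same comparison passed for 1 of 10 members (0.907% of all genes), Car4, with a difference of -2.5 (SE 0.48) that was lost in 6 of 8 fits leaving out 1 library and with limma-voom (adjusted p = 0.0836). BRAF and BRAFp53 cultures also differ in donor, and in SI in sex, which cannot be told apart from the effect of p53R172H.

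Between tissues, the BRAF response differed for 3 of 10 members (10.7% of all genes), and each was lower in COL. The differences were -2.82 (SE 0.44) for Car2, -1.95 (SE 0.20) for Car13 and -0.81 (SE 0.20) for Car9, and that of Car9 was lost without COL BRAF off replicate 1 or SI BRAF off replicate 2 (edgeR adjusted p = 0.0581 and 0.0702). Without SI BRAF on replicate 1 the Car2 difference was -2.11 and still passed, and with limma-voom it was -2.73 and did not pass (adjusted p = 0.0843). The Car4 responses differed by -0.04 (SE 0.58), with off Car4 of the COL BRAF culture inside the range of the off SI libraries. The BRAFp53 response differed for 3 of 10 members (3.52% of all genes), with Car2 at -3.69 (SE 0.33), Car8 at -1.81 (SE 0.28) and Car4 at 3.40 (SE 0.90, and 2.29 to 9.24 with 1 library left out), of which Car4 was lost in 5 of 8 fits leaving out 1 library and with limma-voom (adjusted p = 0.215). The end at 9.24 leaves a lone SI BRAFp53 on library at 0 Car4 counts, and its size is set by the detection limit. Medium, the dose of 4-HT and the day of RNA isolation differ between the tissues, as does sex in the BRAFp53 genotype. None of these can be told apart from the tissue in these differences.

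**Figure D5:**
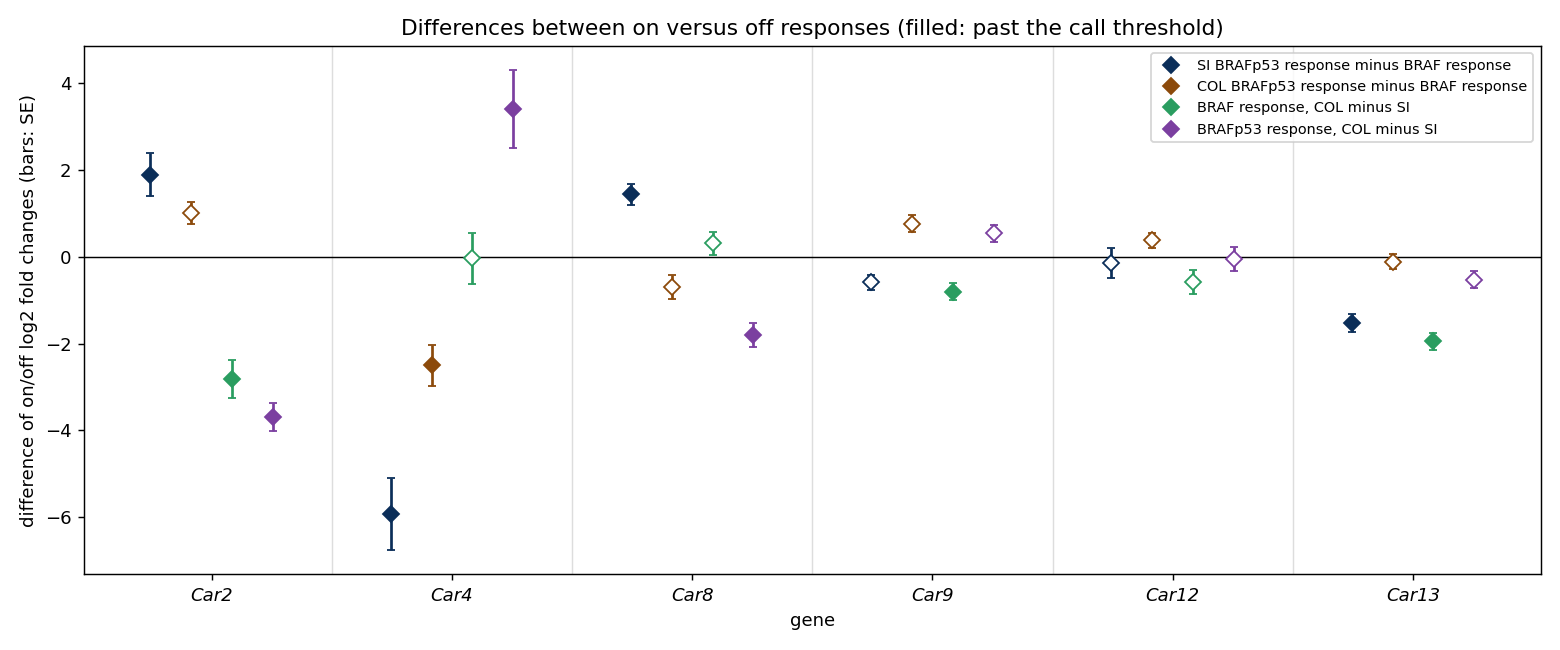
Differences between on versus off log2 fold changes of 6 members (edgeR, bars are SE), between BRAFp53 and BRAF organoids within each tissue and between COL and SI within each genotype, with filled symbols past an adjusted p of 0.05. Car2 lies below 0 in both tissue differences, Car4 has the widest spread, from -5.93 to 3.40, and Car12 has no filled symbol.

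Promoter sequences were at hand for 5 members, Car4, Car7, Car9, Car12 and Car14 (RefSeq starts, GRCm38.p6, 250 bases before to 50 after the start). The windows of Car9 and Car4 are shown because one gene is a known hypoxia target and the other had the largest called response to BRAFV600E alone. Both strands were searched for ACGTG and GCGTG, the cores of hypoxia response elements, for TGANTCA, the AP-1 site, and for TTTATG, a site of CDX factors, and matches are in capitals.
Car9, chr4:43506776-43507075, plus strand: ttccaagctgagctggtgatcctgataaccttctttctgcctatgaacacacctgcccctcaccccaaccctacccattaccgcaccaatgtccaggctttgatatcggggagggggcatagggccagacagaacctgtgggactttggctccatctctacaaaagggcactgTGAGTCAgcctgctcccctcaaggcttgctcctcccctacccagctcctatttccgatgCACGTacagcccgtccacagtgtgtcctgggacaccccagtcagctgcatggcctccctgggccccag
Car4, chr11:84957504-84957803, plus strand: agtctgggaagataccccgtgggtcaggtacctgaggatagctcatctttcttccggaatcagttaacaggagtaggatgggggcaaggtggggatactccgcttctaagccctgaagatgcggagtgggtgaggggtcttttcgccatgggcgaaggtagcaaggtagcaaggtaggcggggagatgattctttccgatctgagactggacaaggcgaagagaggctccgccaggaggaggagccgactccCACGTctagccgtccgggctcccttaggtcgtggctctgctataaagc
The Car9 window held the first hypoxia core once, on the strand not shown, beginning 18 bases before the start, and the AP-1 site once, beginning 77 bases before it. The windows of Car4 and Car14 held the first core once each, and that of Car12 held none of the 4 motifs. Of the 3 windows of Car7, 1 held the second core at 2 places, 1 held it once and 1 held no motif. Of all 32851 promoter windows of this length, 19.6% held the first hypoxia core, 32.4% the second, 7.81% the AP-1 site and 11.9% the CDX site.

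The other 6 genes of the family, Car5a, Car5b, Car6, Car10, Car11 and Car15, were low. Car5b, a mitochondrial isoform on chromosome X, rose in COL BRAF organoids from 0.553 and 0.791 CPM to 2.87 and 3.18 CPM (log2 fold change 2.17 with an SE of 0.44, edgeR adjusted p = 0.00463) and in COL BRAFp53 organoids from 0.422 and 0.625 CPM to 4.19 and 3.10 CPM (2.74, SE 0.45, adjusted p = 0.00161). In COL p53 organoids it was at 0.808 and 1.54 CPM off and at 2.71 and 1.62 CPM on, a change that did not pass (0.88, SE 0.42, edgeR adjusted p = 0.619). All SI libraries held at most 40 Car5b counts. Car6, a secreted isoform, was at 0.429 to 0.934 CPM in the off SI cultures and at 0.0068 to 0.178 CPM in the off COL cultures, a difference that did not pass (log2 -2.57, SE 0.91, edgeR adjusted p = 0.0728), and it passed in no other comparison. Car11 passed in none of the comparisons it was tested in, which were those with COL libraries, and Car15 was tested between off cultures alone and did not pass. Car5a and Car10 were too low for any fit.

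Bicarbonate and proton transporters, which work with these enzymes, were read from a list of 26 genes. In COL BRAF organoids 4 rose and 3 fell of 24 tested (median log2 fold change 0.30, against -0.01 over all genes), and in COL BRAFp53 organoids 4 rose and 4 fell (median 0.09, against -0.04). In SI, 8 rose and 2 fell of 20 tested in BRAF organoids (median 0.17, against -0.06), and 6 rose and 3 fell in BRAFp53 organoids (median 0.23, against -0.03). In both p53 arms 0 were called by edgeR. Of all genes tested, 19.9% were called in COL BRAF, 17.7% in COL BRAFp53, 31.7% in SI BRAF and 11.5% in SI BRAFp53 organoids. These shares also stand beside the on versus off counts of the hypoxia and surface lists below. The sodium bicarbonate cotransporter Slc4a5 fell in all 4 BRAFV600E arms, most in COL BRAFp53 (log2 fold change -2.60 with an SE of 0.62, edgeR adjusted p = 0.0138). The chloride channel Cftr, through which bicarbonate also leaves the cell, fell in all 4 as well, from -0.87 in COL BRAF to -0.34 in SI BRAFp53. The borate and proton transporter Slc4a11 rose in COL BRAF organoids (2.98, SE 0.32, edgeR adjusted p = 0.000103) and in COL BRAFp53 organoids (2.47, SE 0.30, adjusted p = 0.000292), and Slc9a3r1, a scaffold of apical exchangers, rose in all 4 arms (0.82 to 2.14). The apical exchanger Slc26a6 rose in SI BRAF organoids (1.74, SE 0.15, adjusted p = 2.94e-06) and fell in COL BRAFp53 organoids (-1.34, SE 0.39, adjusted p = 0.0354), and the tissues differed in its BRAF response (-2.53, SE 0.42, edgeR adjusted p = 0.000669).

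The change of Car9 was set beside 16 other hypoxia targets. In COL BRAFp53 organoids, where Car9 rose, 8 of the 16 rose and 0 fell (median log2 fold change 0.66, against -0.04 over all genes), led by the prolyl hydroxylase Egln3 (1.75, SE 0.30, edgeR adjusted p = 0.00197), Adm (1.61) and the glucose transporter Slc2a1 (1.5). In SI BRAF organoids, where Car9 rose too, 7 rose and 1 fell (median 0.34, against -0.06), and Adm (2.02), Egln3 (1.75) and Slc2a1 (1.45) led again. Car9 did not pass in the other 4 arms. In SI BRAFp53 organoids 4 of the targets rose and 1 fell (median 0.06, against -0.03). In COL BRAF, 1 rose, Slc2a1 (1.41), and Kdm3a and Pdk1 fell (-0.89 and -0.69), with a median of 0.15 against -0.01. In the p53 arms edgeR called 0, with medians of -0.47 in COL and 0.22 in SI. The part of oxygen supply in the Car9 level was not tested.

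Genes of colonic surface cells, among which Car1 and Car4 are usually counted, were read from a list of 15. Between off cultures 4 of the 15 differed, 3 higher and 1 lower in COL, where 29.6% of all genes passed. The lower one was Guca2b (log2 difference -3.44, SE 0.16, edgeR adjusted p = 0.000319). Most of the list thus did not tell off COL from off SI organoids. In COL BRAF organoids 10 rose and 1 fell (median log2 fold change 0.94, against -0.01 over all genes), with the largest rises in Aqp8 (3.79, SE 1.21, edgeR adjusted p = 0.0466), the chloride channel regulator Clca4a (3.44, SE 0.34, adjusted p = 5.68e-05) and the mucin Muc3 (3.09, SE 0.23, adjusted p = 1.1e-05). In SI BRAF organoids 11 rose and 2 fell of 14 tested (median 2.18, against -0.06), led by Clca4a (4.79, SE 0.57), Muc3 (3.67, SE 0.27) and Guca2a (2.91, SE 0.16). In COL BRAFp53 organoids 4 rose and 3 fell (median 0.43), and in SI BRAFp53 organoids 8 rose and 4 fell (median 0.65), Aqp8 falling there by 2.77 (SE 0.77, adjusted p = 0.0343). The BRAFp53 response in SI was lower than the BRAF response for 9 of these 14 genes and higher for 0, where 8.20% of all genes passed, 1058 lower and 325 higher. Of the members, Car4 and Car13 were lower and Car2 and Car8 higher in the same comparison. The part of the share of surface-like cells in the changes of Car1, Car4 and Car13 was not tested.

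Genes that followed each member most closely over the 24 libraries were named by Pearson's r of log2 CPM, as a description, since the libraries share tissue, culture and depth. They were Slc6a14 (r = 0.996), Fa2h (0.995) and Clu (0.995) for Car1, Far1 (0.97), Tcaf1 (0.967) and Tlr1 (0.966) for Car2, and Ldlrad3 (0.989), Thbs1 (0.986) and Nrp2 (0.985) for Car12. Car8 was followed by Selenom (0.969), Sike1 (0.968) and Ets2 (0.966), Car4 by the kinase Sgk1 (0.947), Hpgd (0.931) and Atxn1 (0.922), and Car13 by Gabarap (0.934), the bile acid transporter subunit Slc51b (0.919) and Gskip (0.915). For Car9, the glycolytic Aldoa (0.862) and Pfkl (0.859) and the demethylase Kdm5c (0.838) came first. Car3, Car7 and Car14, near the detection limit, reached at most 0.807.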

How the data were processed

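The deposited files were 2 tables of raw read counts per gene, 1 per tissue, which the authors did not normalize and in which each library had its own column. Per the study's methods, paired-end reads were aligned to mm10, and the submitters' processing notes list Trimmomatic 0.36, STAR 2.5.2b and the builds mm9 and mm10. Neither the annotation release nor whether strand was used is given in the sources used here, and counts of overlapping genes may depend on both. All 24 columns were mapped to a group by their names, and no library was left out.

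Symbols, coordinates and exon lengths came from GENCODE M21 (45143 of 45706 identifiers matched). Within each tissue, counts were scaled by TMM, filtered with filterByExpr and fitted with 1 mean per genotype and state in edgeR 4.0.16 (glmQLFit and glmQLFTest, R 4.3.3). Tissue differences of responses used a joint fit of 24 libraries, and off cultures were compared as sums of their 2 libraries, 3 against 3. A call is an adjusted p under 0.05 (Benjamini-Hochberg, over all genes tested). Each SE was derived from the edgeR test, as the absolute log2 fold change over the square root of its F statistic. Levels are CPM by TMM over the 24 libraries. The study's methods state that induction was done in duplicates of each culture, so p-values measure the spread between duplicates of 1 donor culture only. The fits were tested on simulated counts. As alternatives, each library was left out in turn, DESeq2 1.42.0 and limma-voom (limma 3.58.1) took the place of edgeR, size factors were set by RLE, the filter was dropped or raised to 10 counts in every library, a replicate block was added and levels were scaled within the tissue.

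The members and lists were chosen with earlier results of these data known. Genes are named by rule, namely the 10 members, the other 6 genes of the family, up to 3 genes per direction and comparison with the largest log2 fold change from lists of 26 acid-base transport, 16 hypoxia and 15 surface colonocyte genes, and the 3 genes most like each member. Slc9a3r1 and Cftr in arms beyond that rule, Xist, Ddx3y and Gm5843 were named after their values were seen. Sequence stretches of 50 bases and reading frames were taken from GENCODE M21 transcripts with Biopython 1.88, and promoters from RefSeq.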

Additional observations from a re-analysis of the deposited data

Results flagged for a closer look

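The results below were set aside because the difference between 2 responses passed the edgeR threshold over all genes. They use the same on and off values that chose the members. All values are differences of on versus off log2 fold changes.

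In SI, the BRAFp53 response was lower than the BRAF response for Car4 (-5.93, and -4.85 to -11.53 with 1 library left out) and Car13 (-1.53). It was higher for Car2 (1.89, and 1.48 to 2.60 with 1 library left out) and Car8 (1.44). In COL, it was lower for Car4 (-2.5, and -2.05 to -3.14 with 1 library left out). For the BRAF response, COL was below SI for Car2 (-2.82), Car13 (-1.95) and Car9 (-0.81). For the BRAFp53 response, COL was below SI for Car2 (-3.69) and Car8 (-1.81) and above SI for Car4 (3.40, and 2.29 to 9.24 with 1 library left out). The ends at -11.53 and 9.24 leave a lone SI BRAFp53 on library at 0 Car4 counts, and their size is set by the detection limit. The values 1.89 and -2.82 of Car2 and -2.5 and 3.40 of Car4 did not pass with limma-voom (adjusted p = 0.0781, 0.0843, 0.0836 and 0.215). Groups of 2 libraries were too small to look for a single deviating library by a formal rule.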

How the results depend on the processing

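Values rest on 2 libraries per group and 1 culture per genotype and tissue, and Car1 in SI, Car3, Car7 and Car14 were limited by their counts. In the following, counts are members past the threshold. Without a filter on low counts there was 1 in COL p53, Car4, against 0, there were 5 against 1 for the COL BRAFp53 minus BRAF response, and 5 against 3 for the BRAFp53 response of COL minus SI. For the COL BRAFp53 minus BRAF response, DESeq2 gave 3 and limma-voom 0. Leaving out 1 library in turn gave 1 to 3 in COL BRAFp53 (1 without on replicate 1, off replicate 1 or off replicate 2, and 3 without on replicate 2), 3 to 4 in SI BRAF, 2 to 4 in SI BRAFp53 (2 without on replicate 2), 0 to 1 for COL BRAFp53 minus BRAF, 3 to 4 for SI BRAFp53 minus BRAF, 2 to 3 for COL minus SI in either genotype, 3 throughout in COL BRAF and 0 throughout in both p53 arms. Where this left a lone library in an arm, it was assumed to vary like the other groups. Leaving out 1 culture gave 4 to 6 for off COL minus off SI, with 6 without the COL BRAF culture. Scaling within the tissue moved the highest group mean of Car2 from 2716 to 2938 CPM, of Car8 from 104 to 116, of Car9 from 400 to 367, of Car12 from 81.7 to 88.4 and of Car13 from 175 to 158. No value changed its sign while called. Of 574 single-gene values with 1 library or culture left out, 541 stayed on their side of the threshold, 28 lost the call and 5 gained one, and of 565 under the other alternatives 535 stayed, 6 lost the call and 24 gained one. The cause of these moves was not tested.

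The replicate numbers did not pair the libraries. Deviations of same-numbered libraries from their group means correlated at -0.01 to 0.033 in COL and at -0.059 to 0.101 in SI. With the replicate block, the count for COL BRAFp53 minus BRAF was 2, and the other counts stayed within 1.5 times the reported ones. The block added Car9 to 3 response differences, COL BRAFp53 minus BRAF (0.76, edgeR adjusted p = 0.0357), SI BRAFp53 minus BRAF (-0.58, 0.0322) and BRAFp53 in COL minus SI (0.54, 0.0392), where Car9 missed the threshold without it (0.075, 0.0564 and 0.138). In SI BRAFp53 minus BRAF, Car9 also passed with DESeq2, limma-voom, no filter and at least 10 counts (0.00988 to 0.0401).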
